A study of Mus musculus with 8 samples.

Results

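Sca1 cells carrying a short hairpin RNA (shRNA) against Set7 were compared with untreated Sca1 cells, which is 4 of the 8 RNA-seq libraries of a mouse study of Set7 on the way from embryonic stem cells to smooth muscle. The comparison covered 13966 genes of the 23483 in the count table, each represented by the transcript row with the highest total count. All cells were of strain C57BL/6 and were labelled with 5.5 mM glucose. To obtain Sca1 cells, stem cells had been left without the self-renewal factor LIF for 4 days in flasks coated with gelatin, and cells bearing Sca1 had been taken out with magnetic beads, to a purity above 80% by flow cytometry, and expanded without LIF. The untreated group (2 libraries) carried no construct. The Set7 shRNA group (2 libraries) had in addition been transduced with a lentiviral hairpin and kept in 1 µg/ml puromycin for a week or longer. A non-target group (2 libraries), with a control hairpin, the same vector type and the same selection, is given for comparison. Transduction, selection and time in culture therefore differ between Set7 shRNA cells and untreated cells together with the hairpin, and cannot be told apart from it in this comparison. The labels describe 1 hairpin against Set7, do not say whether the 2 libraries of a group came from separate cultures, and p-values therefore measure the spread between these libraries only.

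Set7, the product of Setd7, is an enzyme that adds a single methyl group to lysine, first described on histone H3 and later on many other proteins, among them transcription factors. Sca1 is a small surface protein encoded by Ly6a that marks progenitor cells in several mouse tissues, including cells that can give rise to vascular smooth muscle. Smooth muscle cells are recognised by contractile proteins such as smooth muscle actin, transgelin and calponin, whose genes are switched on by serum response factor with its partner myocardin, and they lay down a matrix of fibrillar collagens and elastic fibres. Transforming growth factor beta and platelet-derived growth factor are among the signals known to act in this lineage.

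Gene counts summed to between 2507938 and 4406728 in the 4 libraries compared, so genes at a low level on the counts-per-million (CPM) scale rest on few reads. One row, the non-coding transcript NR_046233, took 12% of the counts of untreated library 2 and between 0.462% and 1.62% of the other 3. The untreated libraries differed from each other more than the Set7 shRNA libraries did, with a median absolute log2 difference over genes of 0.225 against 0.142. The chi-square per degree of freedom was 43.5 against 2.1, but most of the untreated value came from the row NR_046233 alone. The sample descriptions give the untreated libraries the codes 34 and 56 and the Set7 shRNA libraries the codes 12 and 34. The labels do not explain these codes, which thus differ in part together with the hairpin. Untreated library 2 shares code 56 with stem cell library 2, where NR_046233 took 11.5% of the counts. Ly6a itself, on chromosome 15, was low in every library: 13 and 4.42 CPM in the untreated libraries and 9.81 and 11.2 in the Set7 shRNA libraries, against 9.85 and 5.72 in undifferentiated stem cells. These ranges overlap. Between Set7 shRNA and untreated cells the log2 difference was 0.30 ± 0.38 (SE, adjusted p = 0.65), and it was 1.36 without untreated library 1 and -0.19 without untreated library 2 (adjusted p = 0.0816 and 0.785). Among markers of blood, Hbb-y and Hba-x were at 0 in all 4 libraries, while Runx1, a factor also active outside blood, stood at 26.6 and 13.3 CPM in untreated and 11.9 and 16 CPM in Set7 shRNA cells (adjusted p = 0.226). Throughout, levels are CPM scaled to effective library size, 2 libraries per group, and differences are log2 fold changes with their standard error (SE), Set7 shRNA over untreated. In bulk RNA of this kind, fewer cells of a type and less RNA per cell cannot be told apart.

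The hairpin was designed against a 21-base stretch of Setd7 messenger RNA, given here because the whole comparison rests on it, with capitals marking the target.

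Setd7 target: CCGTGTTCAGAGATACCAAAT

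Matched against GENCODE transcripts, this stretch occurs once in the annotated transcriptome, on the sense strand of the protein-coding Setd7 transcript, in exon 8 of 8, in the 3′ UTR. Its position is chr3:51520958-51520978 (GRCm38, minus strand), 329 bases beyond the stop codon. Setd7 measured 76.3 and 66.3 CPM in the untreated libraries and 14 and 10.8 CPM in the Set7 shRNA libraries. The groups were far apart, and Setd7 fell by 2.56 ± 0.21 on the log2 scale, a 5.88-fold reduction (adjusted p = 2.63e-07). With the non-target hairpin Setd7 stood at 60.7 and 66.6 CPM, close to the untreated level, with a log2 difference from untreated of -0.17. Between the single libraries of description code 34 in each group the log2 difference was -2.77. The protein was not measured in these data.

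**Figure D1:**
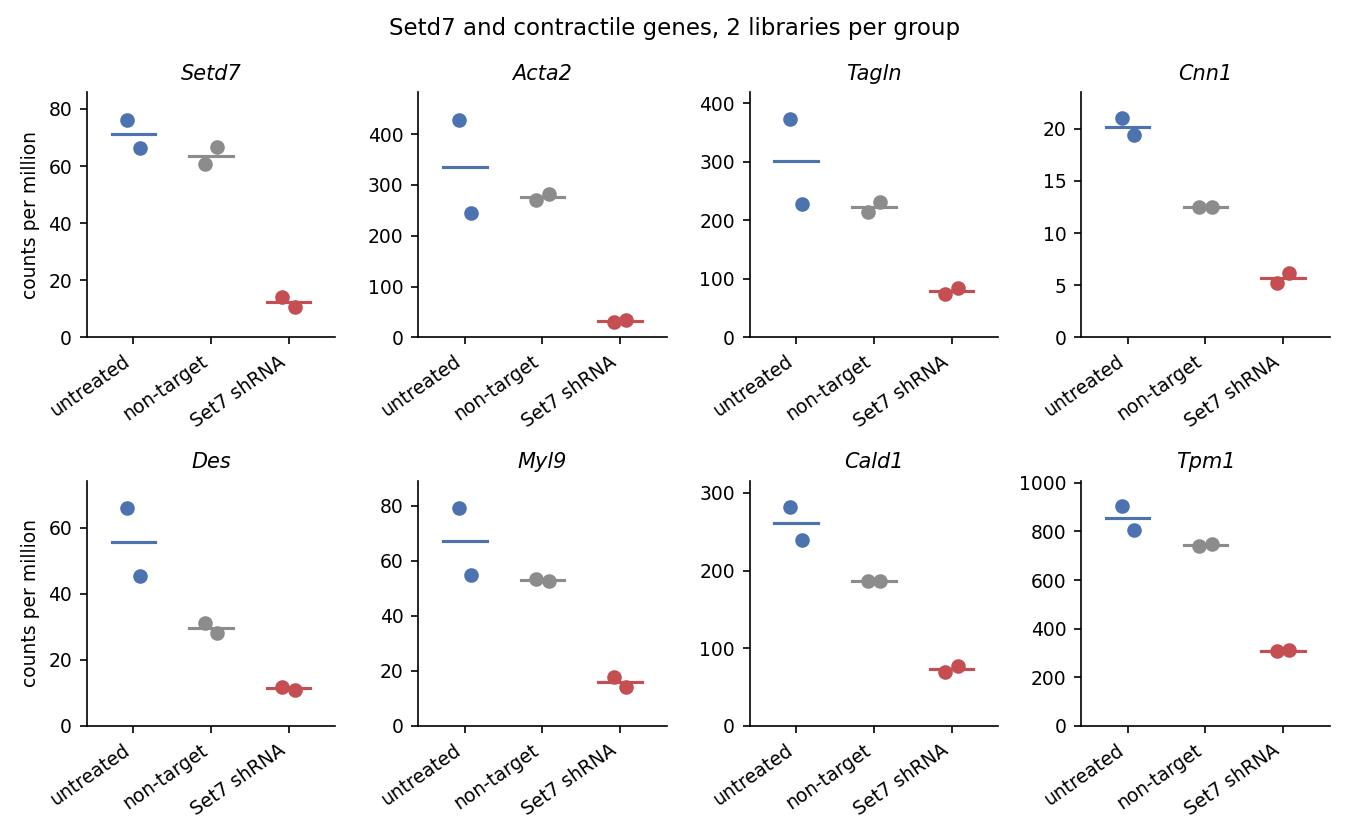
Level of Setd7 and of 7 contractile genes in each Sca1 library (vertical axes, CPM, starting at 0; points are the 2 libraries of a group, bars their mean). Setd7 lies at 14 and 10.8 with the Set7 hairpin and at 60.7 or more in the other 4 libraries, and in all 7 contractile genes both Set7 shRNA libraries lie below the other 4.

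Across all genes, 1025 were called higher with the Set7 hairpin (7.34% of those tested) and 1381 lower (9.89%), at an adjusted p of 0.05 in edgeR's quasi-likelihood test. The falls were deeper than the rises. Of the genes that fell, 760 did so by more than 2-fold and 262 by more than 4-fold, whereas 232 rose by more than 2-fold and 36 by more than 4-fold. The median called fall was -1.09 and the median called rise 0.69 on the log2 scale, while the median over all tested genes was 0.00. In 2405 of the 2406 calls the untreated and Set7 shRNA libraries did not overlap, the exception being Zscan4a, a gene of the early embryo with near-identical copies, at 12.4 and 3.98 against 4.2 and 1.76 CPM (named after its values were seen; adjusted p = 0.0317, and 0.624 without untreated library 1 and 0.365 without Set7 shRNA library 2). Non-overlap alone says little with 2 libraries a group, since 50.7% of the genes that were not called did not overlap either. Leaving out 1 library left between 286 and 891 genes called higher and between 510 and 1053 called lower, the fewest without Set7 shRNA library 2.

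**Figure D2:**
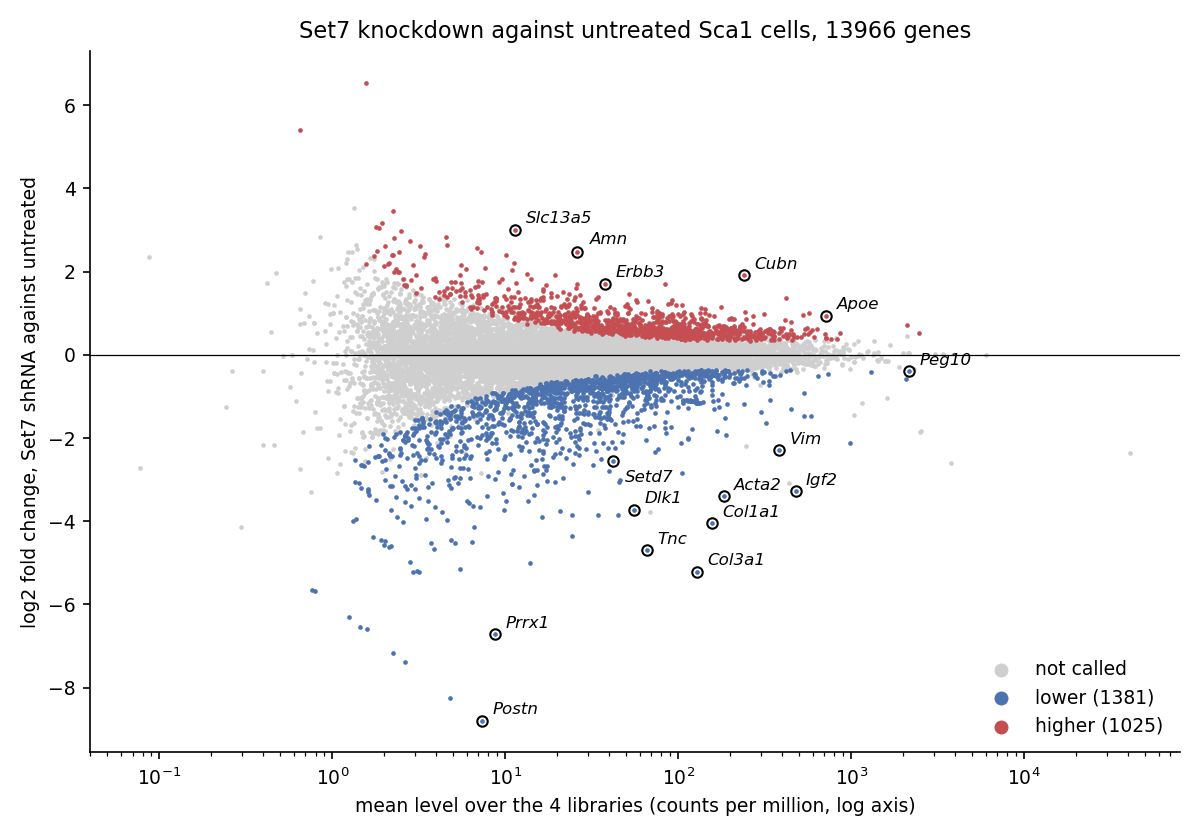
Each of the 13966 tested genes by its mean level over the 4 libraries (horizontal axis, CPM, log axis) and its log2 fold change, Set7 shRNA against untreated (vertical axis); red points were called higher and blue points lower. The deepest falls at high expression include Col3a1 at -5.21, Col1a1 at -4.04 and Igf2 at -3.27, while the largest named rise is Slc13a5 at 3.01.

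Contractile genes of smooth muscle fell together. Of 24 tested members of the smooth muscle list, 16 fell and none rose, with a median log2 difference of -1.50. Without Set7 shRNA library 1 or library 2 the count was 11, and without untreated library 1 it was 13. Acta2, smooth muscle actin, measured 427 and 244 CPM in untreated cells and 29.4 and 33.9 CPM with the Set7 hairpin, a fall of -3.40 ± 0.25 (adjusted p = 7.3e-06). The untreated libraries differed from each other by less than the gap to the lower group. Tagln, the actin-binding protein transgelin, went from 373 and 228 to 73.6 and 85.1 CPM (-1.92 ± 0.18, adjusted p = 3.56e-06). Cnn1, calponin, was less abundant, at 21 and 19.4 CPM, and fell to 5.25 and 6.15 CPM (-1.81 ± 0.28, adjusted p = 0.000261).

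The same held for filament and regulatory proteins of the contractile apparatus. Des, the intermediate filament desmin, fell from 66.1 and 45.5 to 11.9 and 11 CPM (-2.31 ± 0.22, adjusted p = 1.69e-06). Cald1, caldesmon, which binds actin and myosin, fell from 282 and 240 to 69.3 and 77.6 CPM (-1.83 ± 0.13, adjusted p = 5.94e-08). Tpm1, a tropomyosin that lies along actin filaments, fell from 905 and 806 to 308 and 312 CPM (-1.46 ± 0.12, adjusted p = 2.63e-07). In these 3 genes the 2 Set7 shRNA libraries lay within a few CPM of each other relative to the size of the fall. Actc1, the cardiac actin that early mesoderm also makes, fell from 88.7 and 39.8 to 3.15 and 5.5 CPM (-3.84 ± 0.43, adjusted p = 0.000356). The contractile genes without a call included Smtn (-0.17), Mylk (-0.63), Flna (-0.06) and Vcl (-0.40), and Myocd, the myocardin gene, was below the filter at no more than 0.884 CPM in any of the 4 libraries.

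Genes around the serum response factor divided. Of 24 tested members of a list of its targets, cofactors and focal adhesion genes, 10 fell and 1 rose, with a median of -0.34. That count was 4 without Set7 shRNA library 2, 6 without library 1 and 7 without untreated library 1. Parva, the focal adhesion linker parvin alpha, fell from 84.1 and 58.3 to 16.1 and 14.7 CPM (-2.23 ± 0.20, adjusted p = 8.54e-07), and Zyx, zyxin, from 127 and 144 to 72.1 and 64.4 CPM (-0.99 ± 0.13, adjusted p = 5.56e-05). The factor and its cofactors were not called: Srf measured 79.1 and 75.1 against 66.5 and 65.9 CPM, a difference of -0.22, and Mrtfa and Mrtfb differed by -0.03 and -0.15. The rise was Ccn2, connective tissue growth factor (0.52 ± 0.15, adjusted p = 0.0227), which lost its call without untreated library 1 and without either Set7 shRNA library (adjusted p of 0.125 to 0.158).

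Because serum response factor binds a short element, the CArG box, the 300 bases around the start site (250 before it, 50 after) were searched for an exact match on both strands. RefSeq windows (GRCm38.p6) were found for 20 of the tested contractile genes, and 4 of these held the box, against 1.52% of all tested genes with a window. Of the 4, 3 fell (Cnn2, Ldb3 and Myl9), while Vcl, the adhesion protein vinculin, was not called. In the focal adhesion list 5 of 18 genes with a window held it, of which 1 fell (Fhl2) and 4 were not called, Srf among them. Both lists hold known targets of this factor, so shares above that of all genes were built into them and are no separate result. The windows of Myl9 and Cnn2 are printed because these genes fell the most clearly of those with the box; capitals mark it.

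Myl9: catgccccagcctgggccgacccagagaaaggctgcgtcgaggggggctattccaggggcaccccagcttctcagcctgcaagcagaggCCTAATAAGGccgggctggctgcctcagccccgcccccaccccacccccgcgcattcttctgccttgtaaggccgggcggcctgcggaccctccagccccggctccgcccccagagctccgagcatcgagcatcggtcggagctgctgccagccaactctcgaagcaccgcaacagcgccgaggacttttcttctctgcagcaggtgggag

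Cnn2: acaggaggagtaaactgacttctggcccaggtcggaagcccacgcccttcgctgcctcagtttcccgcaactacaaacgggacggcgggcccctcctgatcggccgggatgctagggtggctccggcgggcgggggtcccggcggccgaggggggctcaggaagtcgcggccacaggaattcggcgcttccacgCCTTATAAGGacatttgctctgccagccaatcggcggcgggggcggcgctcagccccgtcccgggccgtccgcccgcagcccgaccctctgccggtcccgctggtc

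The Myl9 window is chr2:156775214-156775513 (plus strand), with the box starting 161 bases before the start site, and that of Cnn2 is chr10:79988350-79988649 (plus strand), with the box 56 bases before it. Myl9, the regulatory light chain of smooth muscle myosin, measured 79.4 and 54.8 CPM in untreated cells and 17.9 and 14.3 CPM with the Set7 hairpin (-2.10 ± 0.21, adjusted p = 3.14e-06). Cnn2, a calponin of wider expression, measured 272 and 257 against 120 and 115 CPM (-1.18 ± 0.12, adjusted p = 2.62e-06). Both genes had separate groups and kept their call when any 1 library was left out. A match in these letters is a description of the window, not a shown binding site.

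Genes of the extracellular matrix fell deeply. Of 33 tested fibrillar matrix genes, 24 fell and 1 rose, with a median of -2.12, and the count stayed between 21 and 24 with any 1 library left out. Col3a1, the collagen III chain typical of vessel walls, measured 239 and 263 CPM in untreated cells and 6.3 and 7.03 CPM with the Set7 hairpin, a 37.1-fold fall (-5.21 ± 0.16, adjusted p = 6.57e-13). Col1a1 and Col1a2, the chains of collagen I, fell together. Col1a1 went from 256 and 331 to 23.1 and 13.6 CPM (-4.04 ± 0.20, adjusted p = 6.35e-10), and Col1a2 from 184 and 185 to 26.6 and 24.8 CPM (-2.85 ± 0.13, adjusted p = 3.06e-10). Tnc, tenascin C, a matrix protein of developing and wounded tissue, went from 146 and 108 to 5.95 and 4.18 CPM (-4.70 ± 0.22, adjusted p = 3.06e-10).

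Several matrix genes came close to absence with the Set7 hairpin. Postn, periostin, named after its values were seen, had 78 counts over the untreated libraries (11.4 and 18.1 CPM) and 0 over the Set7 shRNA libraries, which is at least 35-fold lower when 3 counts are allowed for the 0. Col8a1, a short-chain collagen of vessel walls, fell from 24.4 and 29.6 to 0.7 and 0.879 CPM (31.9-fold, adjusted p = 2.63e-07). Tgfbi, a matrix protein named for its induction by transforming growth factor beta, fell from 98.6 and 68.5 to 5.25 and 6.15 CPM (-3.86 ± 0.25, adjusted p = 2.73e-08). All 3 genes were well apart between the groups. Ccdc80, a secreted matrix protein, fell from 39.9 and 51.2 to 3.5 and 2.86 CPM (-3.84 ± 0.26, adjusted p = 2.73e-08). The single rise was Fbln1, fibulin 1, from 169 and 134 to 234 and 231 CPM (0.61 ± 0.13, adjusted p = 0.00255), a gene of chromosome 15. Fn1, fibronectin (0.34), and Sparc (-0.08), both also made by embryonic endoderm, were not called.

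The enzymes that build collagen moved with it. Of 21 tested genes of collagen folding, cross-linking and trimming, 11 fell and none rose (median -0.70), and 7 fell without Set7 shRNA library 2. Loxl2, a cross-linking lysyl oxidase, fell from 143 and 109 to 24.9 and 27.9 CPM (-2.26 ± 0.17, adjusted p = 1.03e-07). Pcolce, which speeds the trimming of procollagen, fell from 75.1 and 63.2 to 10.5 and 9.67 CPM (-2.79 ± 0.18, adjusted p = 2.28e-08). Fkbp10, a chaperone of collagen folding, fell from 101 and 94.1 to 43.4 and 41.3 CPM (-1.21 ± 0.14, adjusted p = 1.42e-05). Matrix proteases and their inhibitors went the same way, with 13 of 21 lower and 3 higher (median -1.26). That count was 6 without Set7 shRNA library 2. Mmp2, a gelatinase, fell from 68.9 and 60.5 to 14 and 13.4 CPM (-2.25 ± 0.18, adjusted p = 2.75e-07), and the inhibitor Timp2 from 48.8 and 36.2 to 7 and 6.81 CPM (-2.63 ± 0.23, adjusted p = 6.12e-07). The 3 rises, Adam19, Ctsl and Mmp11, each lost their call on leaving out any of at least 3 of the 4 libraries in turn (adjusted p of 0.0504 to 0.271), and Ctsl and Adam19 changed by less than 1.5-fold (0.42 and 0.37).

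Genes of the basement membrane, the sheet on which epithelia rest, showed no common direction. Of 18 tested members 4 fell and 3 rose, and the median was -0.01. The major chains were level: Col4a1 differed by 0.09, Col4a2 by 0.01, Lama1 by -0.03, Lamb1 by -0.14 and Lamc1 by -0.06, none of them called. The falls were led by Col4a5, a minor collagen IV chain, from 37.1 and 32.3 to 3.5 and 4.62 CPM (-3.05 ± 0.31, adjusted p = 3.53e-06), and its neighbour Col4a6, from 21.6 and 19 to 5.6 and 3.52 CPM (-2.22 ± 0.27, adjusted p = 2.3e-05). The rises were Lama5 (0.58), Nid2 (0.62) and Col18a1 (0.63), and each was lost when 1 library was left out, with adjusted p of 0.0858, 0.0602 and 0.119 at most. The rises were 1 without untreated library 1 and 1 without either Set7 shRNA library, and the falls were 2 without Set7 shRNA library 2.

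Transcription factors and adhesion molecules of mesenchymal cells fell with the matrix. Of 16 tested genes in this list 13 fell and 1 rose, with a median of -1.99, and between 9 and 13 fell with 1 library left out. Vim, the intermediate filament vimentin, fell from 738 and 530 to 125 and 134 CPM (-2.29 ± 0.15, adjusted p = 2.73e-08). Cdh11, a cadherin of mesenchyme, fell from 38.6 and 38.4 to 2.1 and 3.3 CPM (-3.76 ± 0.33, adjusted p = 6.56e-07), and Twist1, a factor that drives loss of epithelial character, from 21.6 and 17.7 to 1.75 and 2.64 CPM (-3.10 ± 0.34, adjusted p = 7.3e-06). In both genes the 2 untreated libraries lay close together and far above the Set7 shRNA libraries. Prrx1, a homeobox factor of limb and vessel mesenchyme, had 100 counts in untreated cells and 1 with the Set7 hairpin, a ratio of 135 with a 95% counting interval of 23.6 to 5373. The rise was Nt5e, the surface enzyme CD73 (0.71 ± 0.22, adjusted p = 0.0315), which was lost on leaving out any 1 library (adjusted p of 0.0902 to 0.223).

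Epithelial genes, the usual counterpart, did not rise as a group: 4 of 26 rose and 2 fell, with a median of -0.03. None of the 4 rises remained without untreated library 1 or without Set7 shRNA library 2. Krt19, a keratin of simple epithelia, fell from 112 and 137 to 52.9 and 44.4 CPM (-1.37 ± 0.16, adjusted p = 1.57e-05). Fibroblast markers are partly the same genes as the matrix list, and 4 of 9 fell and 1 rose (2 fell without Set7 shRNA library 2). Their summed level was 400 and 326 CPM in untreated cells and 406 and 401 CPM with the Set7 hairpin, most of it from Fbln1, which rose, and from Pdgfra, a receptor at 83.7 and 85.3 against 101 and 104 CPM that was not called. Dcn, decorin, had 22 counts in untreated cells and 2 with the Set7 hairpin (ratio 14.8, interval 3.64 to 130), and lost its call without Set7 shRNA library 2 (adjusted p = 0.0765).

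Hox genes, which give cells their position along the body axis, fell as a family. Of 32 tested, 22 fell and none rose (median -1.46), from all 4 clusters. The count was 10 without Set7 shRNA library 2, 14 without library 1 and 15 without untreated library 1, with medians of -1.32 to -1.62 in those fits. Hoxc10, of the posterior end of its cluster on chromosome 15, fell from 32.1 and 22.5 to 3.85 and 2.64 CPM (-3.13 ± 0.32, adjusted p = 3.02e-06). Hoxd10 fell from 14.2 and 9.72 to 1.4 and 0.659 CPM (-3.63 ± 0.47, adjusted p = 5.36e-05). Further to the anterior, Hoxd3 fell from 43.6 and 37.6 to 15.8 and 16.7 CPM (-1.32 ± 0.19, adjusted p = 0.000127) and Hoxb3 from 17.9 and 18.6 to 5.95 and 5.28 CPM (-1.71 ± 0.28, adjusted p = 0.000423). Anterior and posterior members thus fell alike in direction, and whether they differed in size was not tested.

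Imprinted genes, expressed from 1 parental copy and many of them tied to growth of the embryo, also moved 1 way. Of 33 tested, 15 fell and none rose, with a median of -0.41, and 9 to 12 fell with 1 library left out. Igf2, insulin-like growth factor 2, went from 1101 and 627 to 86.9 and 92.8 CPM, a 9.62-fold fall, named here after its values were seen (-3.27 ± 0.23, adjusted p = 3.02e-06). Dlk1, an inhibitory relative of Notch ligands, fell from 117 and 89.2 to 8.06 and 7.69 CPM (-3.72 ± 0.20, adjusted p = 1.67e-09). Mest, a hydrolase of the endoplasmic reticulum, fell from 743 and 819 to 276 and 292 CPM (-1.46 ± 0.12, adjusted p = 2.16e-07), and Grb10, an adaptor that restrains insulin signalling, from 290 and 261 to 102 and 89.5 CPM (-1.53 ± 0.15, adjusted p = 1.65e-06). In all 4 the groups were separate and no single library decided the call. Peg10, which is among the most abundant transcripts at 2491 and 2441 CPM, changed by -0.39, and its call was lost on leaving out any 1 library (adjusted p of 0.0935 to 0.312). Igf2r, the receptor that clears Igf2, differed by -0.01. Of 12 genes of the Lin28, Igf2bp and Hmga families and their partners 5 fell and 2 rose, and 2 fell without Set7 shRNA library 2. Among them Hmga2, a chromatin protein, fell from 197 and 175 to 56 and 51.9 CPM (-1.79 ± 0.16, adjusted p = 6.19e-07), and Igf2bp3, a protein that binds Igf2 messenger RNA, from 189 and 273 to 91.1 and 93.6 CPM (-1.31 ± 0.15, adjusted p = 9.59e-06).

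**Figure D3:**
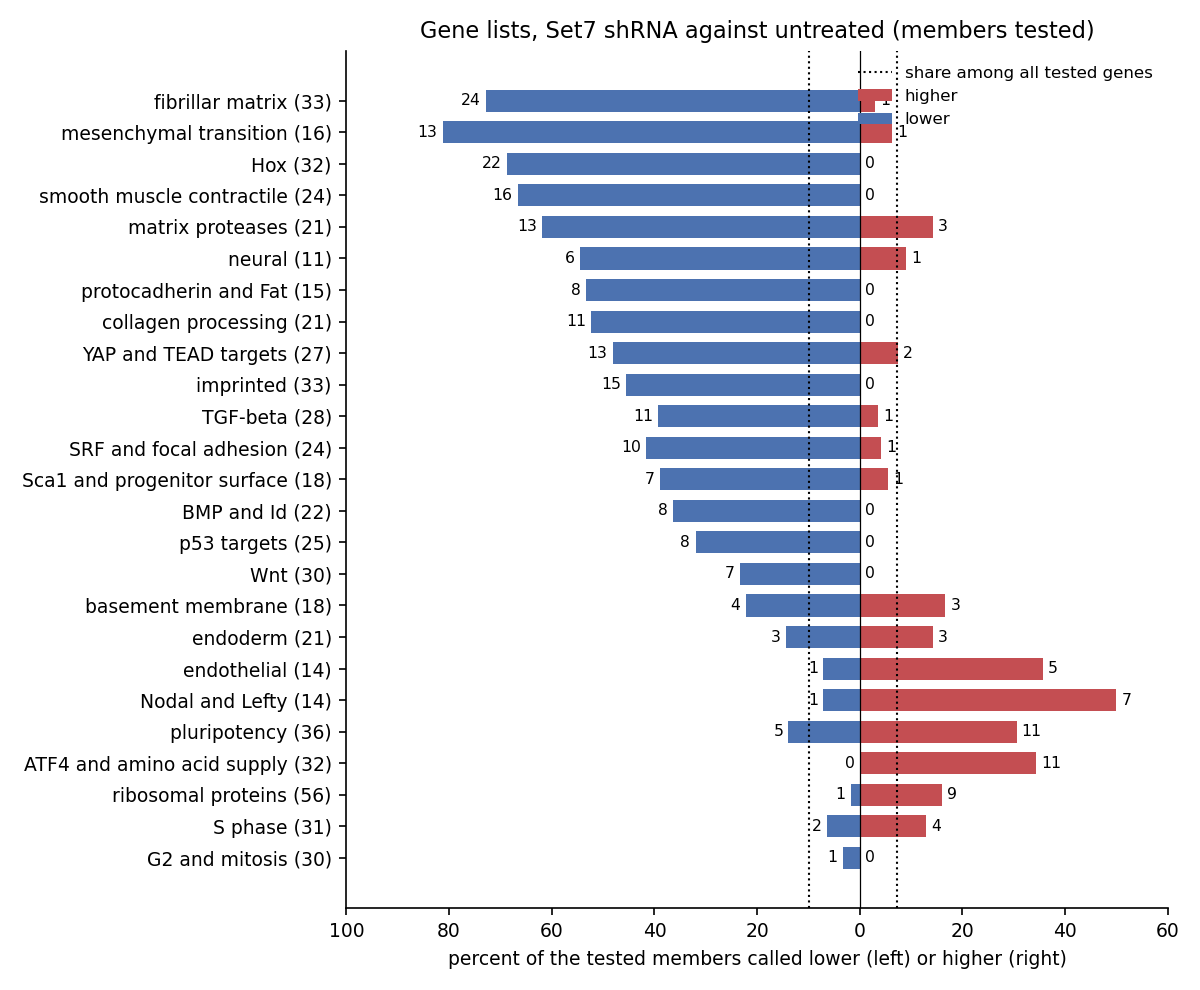
Share of the tested members of 25 gene lists called lower (to the left) or higher (to the right) with the Set7 hairpin than in untreated cells (horizontal axis, percent; the number at each bar is the count of genes, and the number of tested members stands in brackets). Dotted lines mark the shares among all tested genes, 9.89% lower and 7.34% higher, and bars for matrix, mesenchymal, Hox and contractile genes reach far past the left line.

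Signals to mesenchymal and muscle cells fell in part. Of 28 tested genes of transforming growth factor beta signalling, 11 fell and 1 rose (median -0.47), and 5 fell without Set7 shRNA library 2 and 7 without untreated library 1. Tgfb2, a ligand, fell from 38.3 and 38 to 5.95 and 7.47 CPM (-2.47 ± 0.26, adjusted p = 4.21e-06). Ltbp1, which holds the latent ligand in the matrix, fell from 51.9 and 63.2 to 21.4 and 20.9 CPM (-1.44 ± 0.17, adjusted p = 1.58e-05). The transducers were level, with Smad2 at -0.12, Smad4 at 0.01 and the receptor Tgfbr1 at -0.10, not called. Bone morphogenetic protein signalling gave 8 falls of 22 and no rise (median -0.71), with 3 falls without Set7 shRNA library 2 and 5 without library 1 or without untreated library 1. Among them Id2 and Id3, inhibitors of differentiation that this pathway induces, fell from 37.7 and 42.4 to 12.3 and 9.01 CPM (-1.94 ± 0.21, adjusted p = 7.18e-06) and from 76.6 and 97.6 to 45.5 and 43.1 CPM (-0.97 ± 0.16, adjusted p = 0.000484).

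A list of platelet-derived and vascular endothelial growth factors with their receptors and neuropilins gave 4 falls of 11 (Pdgfc, Pdgfrb, Nrp1 and Vegfc), and 2 without either Set7 shRNA library. Pdgfc, a ligand, fell from 31.5 and 32.3 to 7 and 7.69 CPM (-2.10 ± 0.25, adjusted p = 1.67e-05), and Nrp1, a neuropilin and co-receptor of vascular endothelial growth factor, from 29 and 23.4 to 4.55 and 5.94 CPM (-2.30 ± 0.27, adjusted p = 1.08e-05). The receptor Pdgfrb, a marker of mural cells, stood at 33.1 and 15.9 against 13 and 12.3 CPM (-1.01 ± 0.29, adjusted p = 0.0249), and its adjusted p was 0.531 without untreated library 1, 0.119 without Set7 shRNA library 1 and 0.195 without library 2. Of 30 Wnt pathway genes 7 fell and none rose (median -0.21), with 3 falls without Set7 shRNA library 2 and 4 without library 1. Wnt5a, a ligand of the branch that acts without beta-catenin, fell from 31.2 and 29.6 to 11.9 and 13.2 CPM (-1.27 ± 0.22, adjusted p = 0.00059), while Axin2 (0.20) and Lef1 (-0.51), reporters of the beta-catenin branch, were not called. Of 27 targets and partners of YAP and TEAD 13 fell and 2 rose (median -0.50), and the falls were 3 without Set7 shRNA library 2 and 7 without library 1 or without untreated library 1. Ccn1, an early target, fell from 90.5 and 89.7 to 55.7 and 52.8 CPM (-0.74 ± 0.13, adjusted p = 0.000885).

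Among targets of p53, 8 of 25 fell and none rose (median -0.24), and 5 fell without Set7 shRNA library 2. Trp53 itself fell from 287 and 324 to 186 and 186 CPM (-0.72 ± 0.12, adjusted p = 0.000455), and Zmat3, a target, from 151 and 198 to 90.4 and 95.2 CPM (-0.90 ± 0.14, adjusted p = 0.000184). Cdkn1a, the p21 gene, differed by -0.25 and Mdm2 by -0.23, neither called. The oxygen-responsive factor Epas1 fell from 86.5 and 66.3 to 16.1 and 19.3 CPM (-2.10 ± 0.18, adjusted p = 4.16e-07), but of the 19 hypoxia genes tested 2 fell in all.

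Surface molecules of progenitor cells gave 7 falls and 1 rise of 18 (median -0.38), with 4 falls without Set7 shRNA library 1. Cd44, the hyaluronan receptor, fell from 43.6 and 41.5 to 10.5 and 8.35 CPM (-2.20 ± 0.27, adjusted p = 2.61e-05). Vcam1, an adhesion molecule of mesoderm and activated endothelium, had 27 counts in untreated cells and 2 with the Set7 hairpin (ratio 18.2, interval 4.57 to 158). Flt1, a receptor of vascular endothelial growth factor, fell from 48.5 and 68.5 to 15.4 and 18 CPM (-1.77 ± 0.20, adjusted p = 1.07e-05), the single fall among 14 endothelial markers. Of those markers 5 rose (median 0.81), and 2 did so without untreated library 2 or without either Set7 shRNA library. Pecam1, which stem cells also make, rose from 45.4 and 43.3 to 90.4 and 103 CPM (1.13 ± 0.14, adjusted p = 2.11e-05). Cdh5 (-0.61) and Kdr (0.80), defining genes of endothelium, were not called. The summed level of the endothelial markers was 200 and 201 CPM in untreated cells, 253 and 265 CPM with the Set7 hairpin and 354 and 345 CPM with the non-target hairpin.

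The pluripotency network was abundant in both groups, and part of it was higher with the Set7 hairpin. Of 36 tested genes 11 rose and 5 fell, with a median of 0.35. In the same comparison Klf4, Gbx2, Stat3 and Socs3 were called lower. Without Set7 shRNA library 2 they differed by -0.72, -0.77, -0.82 and -0.94. Without untreated library 1 Klf4 differed by -0.18, Stat3 by -0.53 and Socs3 by -0.25. For the whole list, the medians with 1 library left out were as follows. The median was 0.32 without Set7 shRNA library 1, 0.47 without untreated library 1 and 0.22 without untreated library 2. The counts of calls varied more, but such fits leave 1 library in a group and call fewer genes among all tested. When all libraries were kept and the change was tested against 1.5-fold, 0 of the 36 genes were called higher and 0 lower. Pou5f1 (Oct4) measured 625 and 674 CPM in untreated cells and 697 and 681 CPM with the Set7 hairpin, a difference of 0.07 ± 0.15 (adjusted p = 0.804). Nanog measured 207 and 166 against 246 and 253 CPM (0.41 ± 0.12, adjusted p = 0.0286), and Sox2 308 and 299 against 423 and 385 CPM (0.41 ± 0.13, adjusted p = 0.0343). Both of these rises were of 1.33-fold. Sox2 lost its call on leaving out any 1 library, and Nanog without untreated library 2 or without either Set7 shRNA library. Where the call was lost, the difference was 0.27 to 0.44 for Nanog and 0.35 to 0.48 for Sox2. Firmer were Dppa4, from 52.5 and 48.2 to 98.1 and 92.1 CPM (0.91 ± 0.15, adjusted p = 0.000309), and Dppa5a, from 367 and 288 to 642 and 497 CPM (0.79 ± 0.14, adjusted p = 0.000629), both genes of the early embryo. Dnmt3l, a partner of the DNA methyltransferases in germ cells and stem cells, rose from 183 and 167 to 291 and 297 CPM (0.74 ± 0.11, adjusted p = 0.000222). In undifferentiated stem cells Pou5f1 stood at 844 and 575 CPM, a range that holds both untreated Sca1 libraries, and Dppa4 at 104 and 128 CPM. Summed over the list, the level was 8059 and 9534 CPM in untreated cells and 9537 and 9282 CPM with the Set7 hairpin, and its part in the other changes was not tested.

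Nodal signalling, which upholds this state and patterns the early embryo, gave 7 rises and 1 fall of 14 (median 0.45). Of the genes that rose, Foxh1 (0.82) and Lefty2 (0.49) were also called higher against non-target cells. Nodal (0.31), Acvr1b (0.42), Gdf3 (0.03), Pcsk6 (0.02) and Nomo1 (-0.21) were not called in that comparison. Among the rises over untreated cells, those of Acvr1b and Foxh1 were in genes of chromosome 15. The rises were 1 without Set7 shRNA library 1, 2 without library 2 and 3 without untreated library 1. Nodal, the ligand, measured 77 and 119 against 170 and 157 CPM (0.75 ± 0.16, adjusted p = 0.00371), and its adjusted p was 0.0574 without untreated library 1 and 0.0581 without Set7 shRNA library 1. Markers of the streak and early mesoderm gave 5 falls and no rise of 17 (median -0.44), with 3 falls without untreated library 1 or Set7 shRNA library 2. Foxc1, a factor of paraxial mesoderm and vessel wall, fell from 8.65 and 8.39 to 1.05 and 0.879 CPM (-3.13 ± 0.50, adjusted p = 0.000288). Meox1, of the somites, had 61 counts in untreated cells and 2 with the Set7 hairpin (ratio 41.1, interval 10.9 to 347). T (-0.20), Eomes (-0.07) and Mixl1 (-0.44), the genes that define the streak, were not called. Neural markers gave 6 falls and 1 rise of 11. The falls were led by Nes, the filament nestin that mesenchymal progenitors make too, from 177 and 159 to 42.7 and 35.6 CPM (-2.12 ± 0.15, adjusted p = 5.94e-08). The rise was Tubb3, a tubulin of neurons, from 38.6 and 37.1 to 63 and 60.4 CPM (0.70 ± 0.15, adjusted p = 0.00406). Tubb3 stood at 44 and 42.1 CPM in non-target cells. Pax6, Neurog1 and Neurog2 were below the filter. The summed neural level was 460 and 447 CPM in untreated cells and 218 and 204 CPM with the Set7 hairpin.

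Among the largest rises at 20 CPM or more was Slc13a5, a citrate transporter, which went from 3.4 and 1.33 to 18.9 and 22 CPM (3.01 ± 0.33, adjusted p = 6.96e-06). Amn and Cubn encode the 2 parts of a receptor complex that takes up proteins in visceral endoderm and kidney. Amn rose from 8.96 and 6.63 to 43.8 and 44.8 CPM (2.47 ± 0.22, adjusted p = 8.54e-07), and Cubn from 104 and 96.8 to 347 and 412 CPM (1.91 ± 0.14, adjusted p = 7.42e-08). Both were also high in undifferentiated stem cells, Amn at 60.4 and 55.5 and Cubn at 439 and 558 CPM. Other endoderm genes did not follow: of 21 tested 3 rose, Apoe being the third (from 481 and 499 to 978 and 904 CPM, 0.94 ± 0.12, adjusted p = 3.78e-05), and 3 fell, while Sox17 (-0.57), Foxa2 (-0.87) and Gata6 (0.11) were not called.

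Krt23, a keratin, rose from 7.11 and 3.53 to 20.3 and 22.6 CPM (1.95 ± 0.31, adjusted p = 0.000274). Myo7a, a myosin of sensory and epithelial cells, rose from 8.34 and 7.95 to 30.5 and 31 CPM (1.91 ± 0.21, adjusted p = 7.76e-06). Liph, a lipase that makes lysophosphatidic acid, rose from 13.6 and 11.5 to 36.8 and 40.2 CPM (1.61 ± 0.21, adjusted p = 4.56e-05). All 3 started low. Prss50, a testis protease, rose from 4.02 and 8.84 to 23.1 and 20.7 CPM (1.83 ± 0.32, adjusted p = 0.000768). Tdrd12, of the machinery that makes small RNAs in germ cells, rose from 64.3 and 70.2 to 128 and 136 CPM (0.98 ± 0.13, adjusted p = 6.27e-05), though of 25 germline and early-embryo genes 2 rose in all and 1 fell. Gstm1, a glutathione transferase, rose from 36.8 and 23 to 70.7 and 67 CPM (1.17 ± 0.20, adjusted p = 0.000482).

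Genes of amino acid supply rose without an exception in direction among the calls. Of 32 tested genes under the stress factor ATF4, 11 rose and none fell, with a median of 0.25. The count was 6 without Set7 shRNA library 2 and 7 without library 1. Slc7a1 and Slc7a3, transporters of arginine and lysine, rose from 176 and 121 to 279 and 265 CPM (0.87 ± 0.15, adjusted p = 0.000586) and from 124 and 158 to 248 and 258 CPM (0.85 ± 0.13, adjusted p = 0.000157). Slc38a2, a transporter of neutral amino acids on chromosome 15, rose from 334 and 384 to 662 and 736 CPM (0.96 ± 0.13, adjusted p = 5.56e-05). Groups were separate in all 3. Atf4 itself, also on chromosome 15, measured 399 and 276 against 453 and 418 CPM (0.36, adjusted p = 0.166), and the stress genes Ddit3 (0.43) and Atf3 (-0.13) were not called.

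ATF4 acts through the C/EBP-ATF response element, searched here as TGATGNAA on both strands of the same promoter windows. Of 26 tested genes of the list with a window, 9 held it, against 2.72% of all tested genes with a window. The list was made of genes placed under ATF4, so the higher share was built into it and is no separate result. Of the 9, 4 rose and 5 were not called (Atf3, Gars, Nupr1, Slc7a11 and Vldlr). The windows of the 4 that rose are printed, with the element in capitals.

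Asns: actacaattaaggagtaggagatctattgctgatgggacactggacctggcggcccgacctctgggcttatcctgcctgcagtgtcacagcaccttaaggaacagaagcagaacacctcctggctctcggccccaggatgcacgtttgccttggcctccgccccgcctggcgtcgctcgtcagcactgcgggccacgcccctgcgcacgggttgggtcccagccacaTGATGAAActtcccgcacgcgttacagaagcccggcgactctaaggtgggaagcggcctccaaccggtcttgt

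Chac1: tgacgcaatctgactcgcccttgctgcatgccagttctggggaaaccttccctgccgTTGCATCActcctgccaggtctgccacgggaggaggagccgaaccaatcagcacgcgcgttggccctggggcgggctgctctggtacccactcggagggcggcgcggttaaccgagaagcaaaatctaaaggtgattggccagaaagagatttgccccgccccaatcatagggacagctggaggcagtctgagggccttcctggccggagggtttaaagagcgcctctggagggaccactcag

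Pck2: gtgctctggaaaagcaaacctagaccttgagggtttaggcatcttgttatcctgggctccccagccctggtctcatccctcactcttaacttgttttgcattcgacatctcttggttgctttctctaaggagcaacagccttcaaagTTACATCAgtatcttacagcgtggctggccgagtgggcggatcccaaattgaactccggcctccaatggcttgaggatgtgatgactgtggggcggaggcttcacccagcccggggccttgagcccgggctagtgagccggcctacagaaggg

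Trib3: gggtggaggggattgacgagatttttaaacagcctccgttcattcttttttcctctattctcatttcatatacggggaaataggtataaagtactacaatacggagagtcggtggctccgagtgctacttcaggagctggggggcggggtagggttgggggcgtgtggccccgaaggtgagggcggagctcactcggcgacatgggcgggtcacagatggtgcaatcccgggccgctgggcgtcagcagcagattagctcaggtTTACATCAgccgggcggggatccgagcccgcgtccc

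These are chr6:7693160-7693459 (minus strand), chr2:119350992-119351291 (plus), chr14:55540016-55540315 (plus) and chr2:152344011-152344310 (minus), in that order. The element starts 23, 193 and 103 bases before the start site in Asns, Chac1 and Pck2, and 14 bases after the first transcribed base in Trib3. Pck2, a mitochondrial carboxykinase, rose from 69.2 and 58.3 to 113 and 112 CPM (0.81 ± 0.15, adjusted p = 0.00112), and this call held with any 1 library left out. Trib3, an inhibitor of ATF4 and of the kinase Akt, rose from 23.2 and 12.8 to 37.8 and 42.4 CPM (1.12 ± 0.23, adjusted p = 0.00297), with an adjusted p of 0.0686 without Set7 shRNA library 2. Asns, asparagine synthetase, rose from 518 and 413 to 635 and 687 CPM (0.51 ± 0.15, adjusted p = 0.0281), and Chac1, which degrades glutathione, from 18.5 and 6.19 to 27 and 31.9 CPM (1.18 ± 0.31, adjusted p = 0.0156). Those 2 calls were lost without untreated library 2 (adjusted p = 0.242 and 0.11) and without either Set7 shRNA library (at most 0.223 and 0.178). As with the CArG box, a match describes the letters of the window and not binding. Asns, Chac1 and Trib3 were named after their values were seen, as was Myl9 above.

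The chromatin genes closest to Set7 changed little beside Setd7. Of 27 genes of lysine 4 methylation and its removal, 4 rose and 1, Setd7, fell (median 0.12), with 1 rise without Set7 shRNA library 1 and 2 without library 2. The rises of Kmt2b (0.58) and Kmt2d (0.61), large methyltransferases of the same mark, were lost without Set7 shRNA library 1 (adjusted p = 0.0871 and 0.0853), and that of Setd4 (0.82) without untreated library 1 or Set7 shRNA library 2 (0.0639 and 0.0952). Among 30 Polycomb genes 4 rose and 4 fell, with 1 rise without Set7 shRNA library 2. Kdm6b, which removes the Polycomb mark, fell from 61.5 and 57.4 to 22.8 and 18.7 CPM (-1.54 ± 0.19, adjusted p = 1.82e-05), and Cbx7, the reader of that mark in stem cells and a gene of chromosome 15, rose from 243 and 180 to 416 and 417 CPM (0.97 ± 0.13, adjusted p = 6.03e-05). Tet3, an oxidase of methylated DNA, fell from 37.4 and 39.8 to 17.9 and 20 CPM (-1.01 ± 0.20, adjusted p = 0.00156).

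Medians of the growth and housekeeping lists were small, and their calls stand beside shares among all tested genes of 7.34% higher and 9.89% lower. Of 31 S phase genes 4 rose and 2 fell (median 0.09), and none of either without either Set7 shRNA library. Of 30 genes of G2 and mitosis 1 fell, Pttg1, the separase inhibitor securin (-0.58), and none rose (median -0.09); without either Set7 shRNA library Pttg1 had adjusted p of 0.165 and 0.159. Glycolysis gave 2 rises and 2 falls of 22, but 6 and 0 without untreated library 1, 0 and 3 without untreated library 2, 0 and 0 without Set7 shRNA library 1 and 0 and 1 without library 2. Chaperones of the endoplasmic reticulum gave 2 and 2 of 23 (median 0.02), 1 and 1 without untreated library 1, 1 and 2 without untreated library 2, 0 and 1 without Set7 shRNA library 1 and 1 and 0 without library 2. Interferon response genes gave 5 rises and 2 falls of 30 (median 0.05), and 1 or 2 rises without either Set7 shRNA library or untreated library 2. Within it, Ifitm1 rose from 66.4 and 36.7 to 130 and 133 CPM (1.32 ± 0.20, adjusted p = 0.000201), and B2m, part of the antigen-presenting complex, fell from 42.6 and 38.4 to 15.4 and 15.4 CPM (-1.40 ± 0.21, adjusted p = 0.000138).

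The non-target hairpin gives a second view of each gene, and its comparisons share libraries with the 1 described here, so they are set side by side only. Against the non-target group, 594 genes were higher with the Set7 hairpin (4.25%) and 1404 lower (10.1%). Non-target cells had 542 genes above untreated cells (3.88%) and 155 below (1.11%). For contractile genes the non-target group lay between the other groups or near untreated cells. Acta2 was 271 and 282 CPM, Tagln 214 and 231 CPM and Cnn1 12.5 and 12.5 CPM there, and 3 of the 24 list members were lower and 1 higher in non-target than in untreated cells, against 16 lower with the Set7 hairpin than with the non-target hairpin.

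Many matrix genes were highest in non-target cells. Of the 33 fibrillar matrix genes 17 were higher and none lower in non-target than in untreated cells (median 0.72), and 26 were lower with the Set7 than with the non-target hairpin (median -3.01). Col1a1 stood at 788 and 739 CPM and Col3a1 at 656 and 659 CPM in non-target cells, above the untreated libraries, as did the imprinted gene Dlk1 at 429 and 420 CPM. Others did not: Col8a1 was at 15.4 and 17.2 CPM in non-target cells, below both untreated libraries. Col1a1 differed by -4.04 from untreated and by -5.43 from non-target cells, and Dlk1 by -3.72 and -5.75. For basement membrane the count depended on the control, with 4 lower and 3 higher against untreated cells, and 13 lower and none higher against non-target cells. In that list 14 of 18 were higher in non-target than in untreated cells (median 0.76).

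Some genes differed from untreated cells by about as much with either hairpin. Cubn stood at 312 and 328 CPM with the non-target hairpin, close to its 347 and 412 CPM with the Set7 hairpin, a difference of 0.25 that was not called. Lgmn, the lysosomal protease legumain, rose from 72.9 and 53.9 to 145 and 149 CPM (1.20 ± 0.14, adjusted p = 1.13e-05) and stood at 131 and 135 CPM in non-target cells. Pecam1 belongs here too, at 82 and 85.1 CPM in non-target cells. Among falls of this kind, Tceal9, a small nuclear protein encoded on the X chromosome, went from 174 and 242 to 106 and 105 CPM (-0.97 ± 0.15, adjusted p = 0.000202) and stood at 119 and 119 CPM with the non-target hairpin. Others rose above both groups: Slc13a5 (4.49 and 4.46 CPM in non-target cells), Krt23 (5.2 and 4.68 CPM), Prss50 (5.67 and 7.8 CPM) and Pou2f3, a factor of tuft cells, which went from 9.27 and 7.51 to 25.9 and 23.7 CPM (1.54 ± 0.24, adjusted p = 0.000295) against 5.91 and 5.35 CPM.

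**Figure D4:**
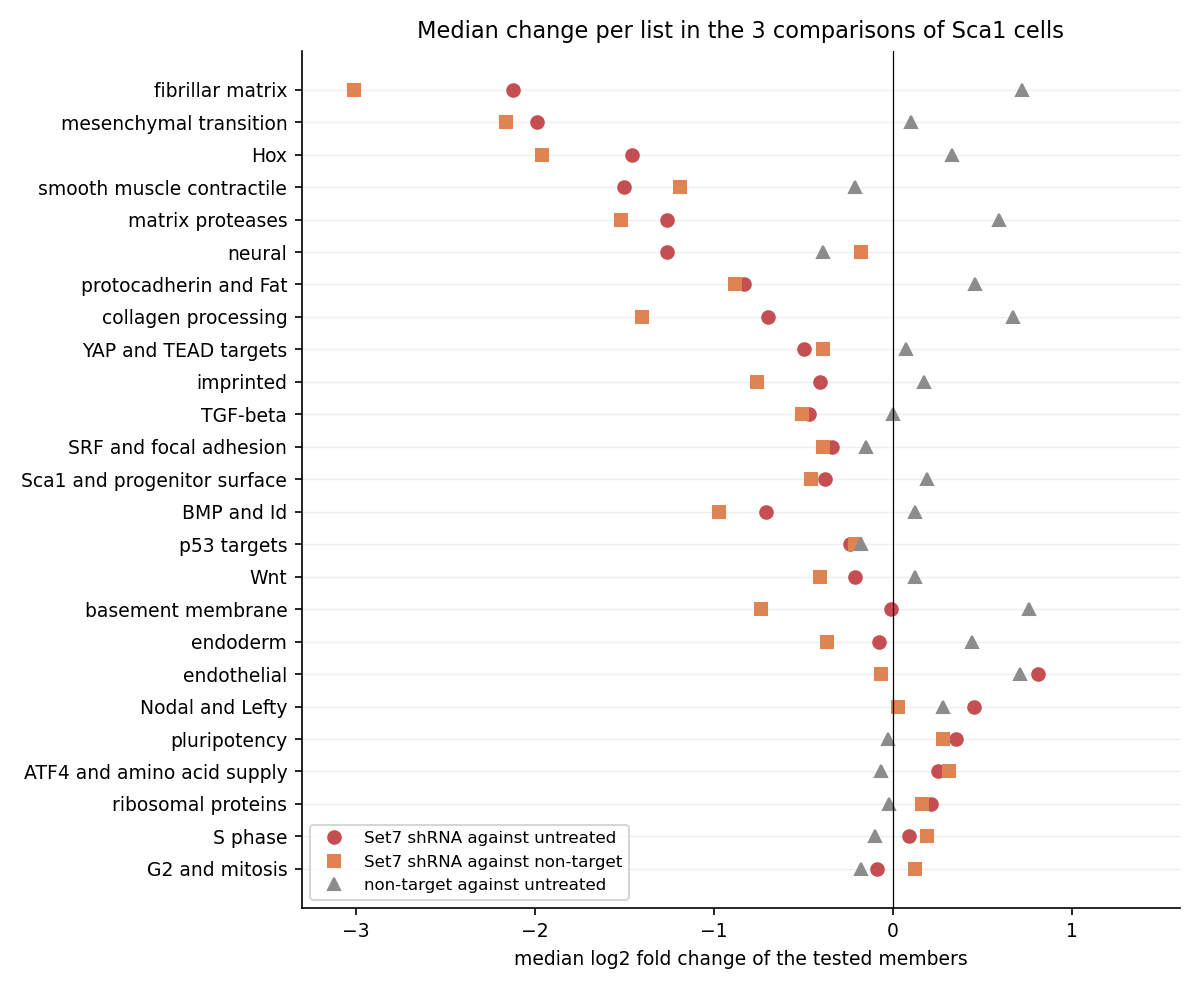
Median log2 fold change of the tested members of the same 25 lists in the 3 comparisons among Sca1 cells (circles, Set7 shRNA against untreated; squares, Set7 shRNA against non-target; triangles, non-target against untreated), which share libraries. For fibrillar matrix the circle lies at -2.12 and the triangle at 0.72, while for contractile genes they lie at -1.50 and -0.21.

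Position on the chromosomes separated 2 sets of genes from the rest. Of 425 genes of chromosome 15 with at least 10 CPM, 149 rose (35.1%) and 21 fell, and 81.4% had a fold change above 0. Their median was 0.35, whereas the medians of the other autosomes and the X chromosome lay between -0.09 and 0.07. With NR_046233 left out of the totals, reads from chromosome 15 made up 4.74% and 4.14% of counts in untreated cells. Their share was 4.35% and 4.32% in non-target cells, and 5.80% and 5.79% in the Set7 shRNA cells. The median for chromosome 15 was 0.41 against non-target cells and -0.05 between non-target and untreated cells. Among ribosomal protein genes, 9 of 56 rose and 1 fell, with 4 rises without either Set7 shRNA library, and the 3 with the smallest p among the rises, Rpl3, Rpl30 and Rpl37, lie on chromosome 15. Rpl3 rose from 91.2 and 87.9 to 178 and 180 CPM (1.00 ± 0.12, adjusted p = 2.32e-05). Of 26 cholesterol synthesis genes 2 rose, a share near the 7.34% of all tested genes called higher. These were Sqle (0.41) and Srebf2 (0.41), both of chromosome 15. Neither was called without untreated library 1 or without either Set7 shRNA library, where the differences were 0.29 to 0.47.

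Of 5 tested genes of the Y chromosome 3 fell with the Set7 hairpin, while Kdm5d (-1.44, adjusted p = 0.0921) and Zfy1 (-1.87, adjusted p = 0.129), at 6.02 CPM or less in every Sca1 library, were not called. Eif2s3y, a translation factor, measured 57.2 and 64.9 CPM in untreated cells and 8.41 and 12.3 CPM with the Set7 hairpin (-2.51 ± 0.19, adjusted p = 1.55e-07). Ddx3y, an RNA helicase, fell from 40.2 and 44.6 to 6.3 and 9.45 CPM (-2.37 ± 0.22, adjusted p = 1.65e-06), and Uty, a relative of histone demethylases, from 21.9 and 36.7 to 3.15 and 4.4 CPM (-2.87 ± 0.39, adjusted p = 0.000129). In non-target cells Eif2s3y stood at 61 and 60 CPM, as in untreated cells. Summed over the chromosome, Y-linked genes made up 132 and 157 CPM in untreated cells and 19.7 and 30.3 CPM with the Set7 hairpin. Without the genes of these 2 chromosomes 897 genes were called higher and 1284 lower, with 16 contractile, 23 fibrillar matrix and 17 Hox genes lower. Hoxc4, Hoxc6, Hoxc8, Hoxc9, Hoxc10 and Col14a1, called lower with all genes in the fit, lie on chromosome 15 and were removed with it. The Hox and matrix counts are therefore of shorter lists than above. The part of the chromosome 15 and Y differences in the remaining changes was not tested.

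**Figure D5:**
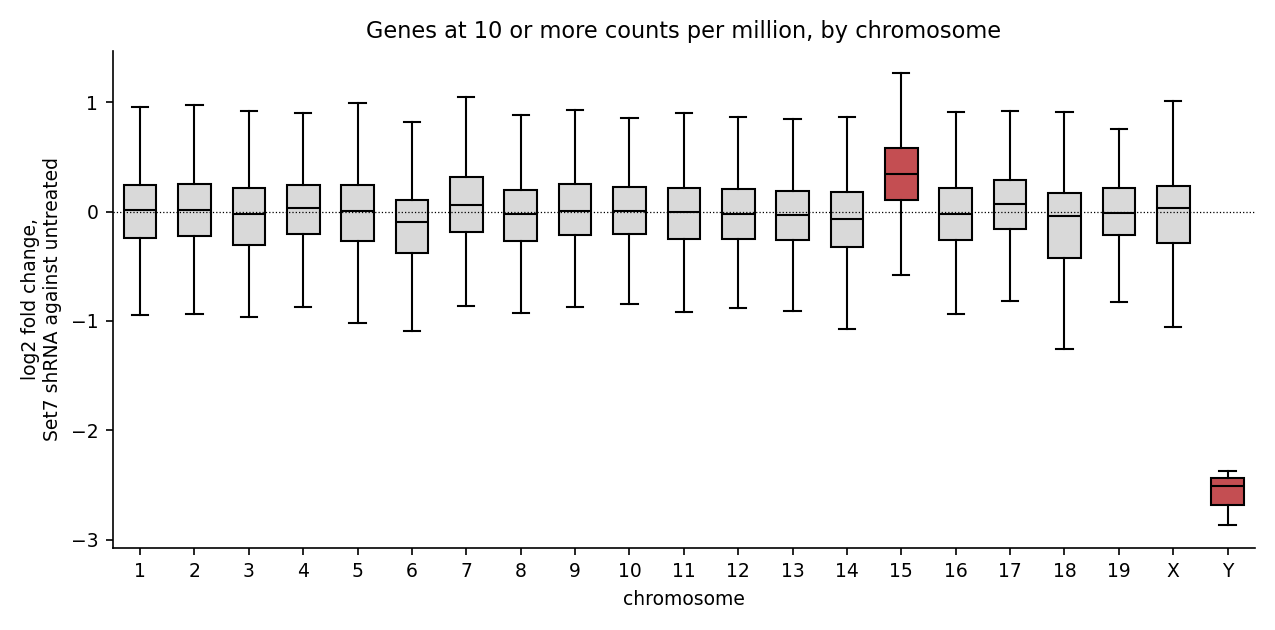
Log2 fold change, Set7 shRNA against untreated (vertical axis), of genes with at least 10 CPM, by chromosome (boxes span the quartiles with the median as a line, whiskers reach 1.5 times the box; points beyond are not drawn; Y has 3 genes). Chromosome 15, with a median of 0.35, and Y, with a median of -2.51, stand apart from the others.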

How the data were processed

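Poly(A) RNA libraries (NEBNext, Genome Analyzer IIx, per the labels' protocols) of 8 samples were deposited by the authors as 1 table of counts per RefSeq transcript, with 29614 rows and whole numbers without normalization. BWA 0.5.9, SAMtools 0.1.17 and edgeR 0.19 are listed, without their roles, per the submitters' processing notes. Not given in the sources used here are the build of the genome, the counting program and any use of strand, so overlapping, antisense or near-identical genes may share reads. Rows were named through RefSeq (28985 rows) or GENCODE (173), 456 stayed unmatched, and the row with the highest total stood for each gene, which leaves reads of other transcripts out.

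Genes passing edgeR's expression filter were fitted in edgeR 4.0.16 (R 4.3.3, limma 3.58.1) with TMM scaling and the quasi-likelihood test over all 4 groups of 2 libraries, with 4 residual degrees of freedom, Benjamini-Hochberg adjustment over all 13966 genes and a threshold of 0.05. DESeq2 1.42.0 was an alternative, beside other scaling, filters, blocks and each library left out. A fit with 1 library left out has fewer residual degrees of freedom, so a lost call is not by itself a smaller difference. Intervals on ratios of low counts cover counting error at the 95% level only.

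Named genes were Setd7, Ly6a, 3 pluripotency and 3 contractile genes, the 12 largest changes in each direction at 20 CPM or more, 6 in each direction changed against both controls and 6 near the non-target level, up to 4 called genes per list with the smallest p, and minority movers. Exceptions are said in the text. The comparison, members and all 51 gene lists were chosen with earlier results of these data known.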

Additional observations from a re-analysis of the deposited data

How the results depend on the processing

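Against 1025 genes called higher and 1381 lower, the counts were 621 and 835 with DESeq2 and 87 and 474 when tested against 1.5-fold. Without the stem cell libraries, which share in the spread used by the main test, they were 1506 and 1779. Scaling by library totals only gave 852 and 882, which put 49.1% of calls on the higher side instead of 42.6% and moved the median of all genes by 0.07. Leaving out 1 library gave 286 to 891 higher and 510 to 1053 lower; the group with a lone library was assumed to vary like the others. A replicate block gave 1126 higher and 1439 lower. The deviations of same-numbered untreated and Set7 shRNA libraries had a correlation of -0.0625 across 10413 genes. Such libraries carry different description codes (34 and 12, 56 and 34), so this value cannot speak to pairing by code. No pairing was used. The correlation was 0.33 for stem cells with untreated cells and 0.18 for non-target with Set7 shRNA cells, groups whose same-numbered libraries share description codes. A block for that code gave 1132 higher and 1401 lower, of which 811 and 1133 were among the calls without it, and 13 named genes lost their call. Pou5f1 turned to -0.07 (adjusted p = 0.794) with this code block, and Ly6a to -0.19 (adjusted p = 0.785) without untreated library 2 and to 1.36 (adjusted p = 0.0816) without untreated library 1; neither was called in any of these fits. Of 224 called named genes, 136 kept their call whichever library was left out and 88 did not. With 2 libraries a group and 2507938 to 4406728 counts, small changes of low genes were not detectable.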
